A study of Mus musculus with 20 samples.

Results

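The genes described here encode the proteasome and the main families of protein-folding chaperones. They were taken by gene symbol from the authors' deposited expression table: the proteasome subunits, activators and assembly factors (Psma, Psmb, Psmc, Psmd, Psme and Psmg genes), the heat shock proteins of the HSP70, HSP90, HSP110, HSP60, HSP10 and small families, the J proteins (Dnaja, Dnajb and Dnajc genes), the subunits of the CCT chaperonin (Cct2 to Cct8 and Tcp1), and the co-chaperones St13 and Stip1. The rule found 95 of the 10334 symbols of that table, through 109 of its 11767 transcript models. It left out 2 further genes that match by name, Hspa1a and Hspa1b, because they lie in an excluded interval of chromosome 17. Of the 95 genes, 39 belong to the proteasome and 56 are chaperones or co-chaperones. Genes of these families without a row in that table, such as Hsp90aa1 and Hspa5, were not analysed here.

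The proteasome is the large protease that degrades ubiquitin-tagged proteins. Its barrel-shaped 20S core is built from rings of alpha subunits, which gate the entrance, and rings of beta subunits, some of which cut the substrate; the 19S cap, with a ring of ATPases and a set of non-ATPase subunits, recognises, unfolds and feeds in the tagged protein. Chaperones help proteins to fold or keep them from clumping: HSP70 binds exposed stretches with the aid of J proteins, HSP90 acts later on kinases and receptors, the CCT ring folds actin and tubulin, and the HSP60 and HSP10 pair folds proteins inside mitochondria. Pluripotent stem cells are known for strong proteasome and chaperonin expression.

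Levels were compared between 5 kinds of mouse cells, each with 2 RNA libraries. V6.5 embryonic stem (ES) cells, a male line from a 129SvJae x C57BL/6 cross, were grown in medium with serum and LIF or in 2i medium, which is serum-free and holds LIF with the GSK3 inhibitor CHIR99021 and the MEK inhibitor PD0325901. Neural progenitor cells (NPC) were primary neurospheres, grown from the whole brain of Sox2-eGFP pups on postnatal day 1. The iPS (induced pluripotent stem) cells had been reprogrammed from NPC of this kind and were grown in serum or in 2i medium. ES and iPS cells were expanded on inactivated embryonic fibroblasts and then passaged on gelatin. The iPS and ES cells differ in origin and genetic background as well as in history, and these cannot be told apart. No label says that replicates were separate cultures; the p-values thus rest on a spread between libraries that may be technical.

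Reads assigned to a transcript model ranged from 1.15M (M, 1e6 reads; NPC replicate 1) to 17.3M (ES replicate 1), and reads in no model from 26.5% (ES replicate 1) to 86.6% (NPC replicate 1), with 81.5% in ES replicate 2. Replicates correlated at 0.981 (NPC) to 0.997 over the members' log2 levels, which are not independent points. Of 6 measured pluripotency markers, all were at 0 CPM (reads of a model in every 1e6 assigned reads, with library sizes scaled by TMM) in both NPC libraries, and their summed level was 3271 to 5512 CPM elsewhere; the summed level of 5 neural progenitor markers was 7415 and 8922 CPM in NPC and 31.5 to 81.4 CPM elsewhere. Collagen and other fibroblast markers (4 of 7 measured; Dcn, Lum and Postn were not among the rows) summed to 127 and 140 CPM in ES cells, 223 and 221 CPM in ES cells in 2i, 61.1 and 79.7 CPM in NPC, 537 and 503 CPM in iPS cells, and 416 and 405 CPM in iPS cells in 2i. Stmn2, the 1 of 5 neuron markers with a row, was at 106 and 101 CPM in ES cells, 205 and 201 CPM in ES cells in 2i, 0 and 0.29 CPM in NPC, 355 and 317 CPM in iPS cells, and 189 and 175 CPM in iPS cells in 2i. The part of these markers in the iPS results below was not tested.

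Counts are of single transcript models, and reads that the files list as ambiguous (6.00% to 35.6% of a library) belong to none. A low value can therefore belong to a gene whose reads mostly went elsewhere: Psmc4 and Psmd2, indispensable proteasome subunits, were listed at 0.281 to 2.51 and 0.376 to 1.24 CPM. Levels are therefore compared within a model, between groups. Many of these genes also have processed pseudogenes, so reads of Hspa8, Hspd1, Hspe1, Hsp90ab1 and similar members are uncertain to that extent. Of the 95 members 87 passed the low-count filter and were tested; Psmc4, Psmd2, Psmd8, Psmg2, Psmg3, Hspa13, Dnajc2 and Dnajc24 were not. None of the 87 passed through libraries of a single group alone. Dnajb13 and Hspb9, however, reached the filter's cutoff of 1.72 CPM (before TMM scaling) only in the 2i libraries of both lines. Psmb8 reached it only in NPC and serum iPS cells. Dnajb12, Hspb6 and Hspb11 each reached it in only 2 libraries, of 2 groups. These groups were NPC and serum iPS cells for Dnajb12 and Hspb6, and the 2i groups of both lines for Hspb11. Where these are the high groups, a change of these genes is not independent of the filter. For 14 members with a second model, the model with the higher mean count was used.

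Together the 109 models took 3.92% and 3.65% of all assigned reads in the ES libraries, 3.51% and 3.62% in ES cells in 2i, 1.56% and 1.57% in NPC, 2.34% and 2.46% in iPS cells, and 2.93% and 3.25% in iPS cells in 2i. The NPC libraries were the lowest, and the iPS libraries in serum lay between NPC and ES cells without overlap. Chaperone models made most of this difference: their share was 2.95% and 2.73% in ES cells, 0.975% and 0.951% in NPC, 1.57% and 1.65% in iPS cells and 2.00% and 2.30% in iPS cells in 2i. Proteasome models took 0.968% and 0.926% in ES cells, 0.582% and 0.618% in NPC, 0.771% and 0.811% in iPS cells, and 0.932% and 0.955% in iPS cells in 2i. Fewer cells of a type and less RNA per cell cannot be told apart in bulk RNA.

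**Figure D1:**
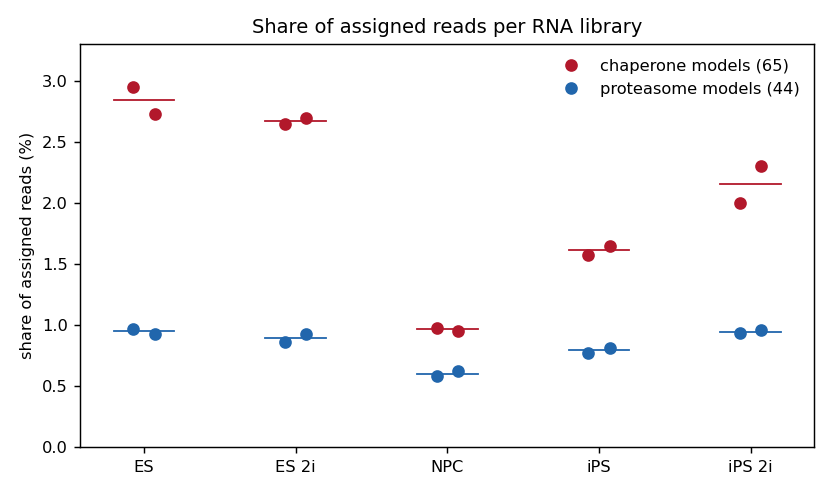
Share of assigned reads (percent, y axis) taken by the 65 chaperone and 44 proteasome transcript models in each of the 10 RNA libraries; each point is a library and each bar the mean of 2. The chaperone share was 2.73% to 2.95% in ES cells and 0.951% to 0.975% in NPC, and the proteasome share fell less far.

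NPC were compared with ES cells first, by a quasi-likelihood test over all 11031 transcript models with Benjamini-Hochberg adjustment and a threshold of 0.05. Of the 87 members 56 were lower in NPC and 9 were higher, where 33.7% of all models tested were lower and 27.3% higher. The members' median log2 change was -0.87 and that of all models -0.21. All 25 proteasome genes that passed the test were lower in NPC; among the 53 chaperones tested, 31 were lower and 9 higher. The decrease lay in members with a mean log2 CPM of at least 3, of which 53 of 67 were lower and 3 higher. Of the 20 members below that level, 3 were lower and 6 higher. The shares over all models were not matched for level. In the authors' own table, which is scaled otherwise and holds all 95 members and 11767 models, these medians were -0.64 and 0.01. The members' median differed from that of all models by -0.66 there, as in the main fit. A constant per library moves all models about alike, so this difference could hardly depend on the scaling.

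The iPS cells were compared with NPC, the kind of cell they were reprogrammed from, and with ES cells in the same serum medium. Against NPC, 35 members were higher (29.3% of all models) and 12 lower (22.0%), with a median of 0.33 for the members and 0.16 for all models. Against ES cells, 13 members were higher (25.9% of all models) and 43 lower (26.9%), with medians of -0.49 and -0.03. The comparisons share libraries and are not independent. Over all 5 groups, the mean level was lowest in NPC for 52 of the 87 members and in serum iPS cells for 15. Both NPC libraries lay below the 8 other libraries for 43 members, and both serum iPS libraries did so for 8. These counts were not made over all models, so they do not set the members apart from other genes. The share of reads in no model was 68.4% and 75.8% in the iPS libraries. Against ES replicate 2 alone, whose share was 81.5%, the median log2 change was -0.39 for the members and 0 for all models. The part of these shares in the result was not tested.

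**Figure D2:**
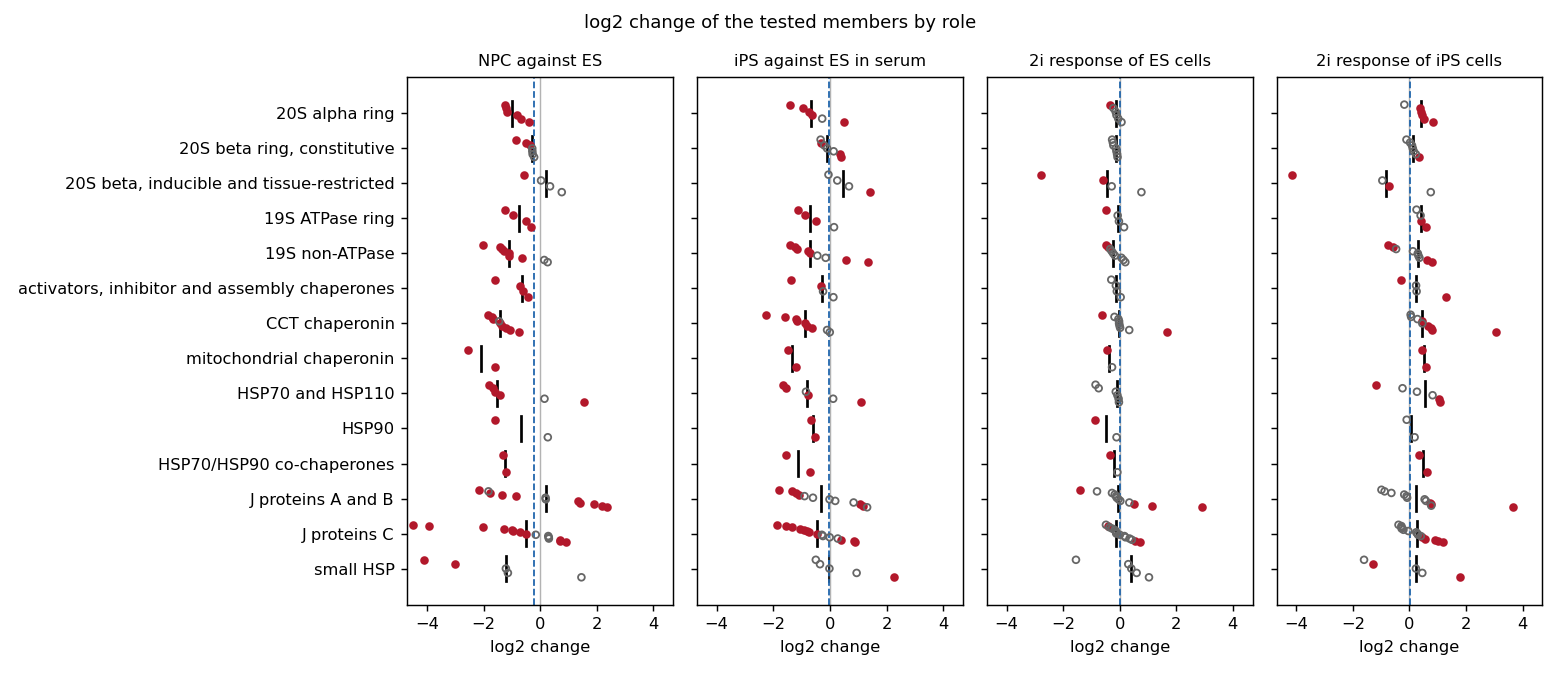
log2 change of the 87 tested members (x axis) by role (rows) in 4 comparisons; filled points passed the test, open points did not, black bars are role medians and the dashed line is the median of all 11031 models. Dnajc22, which had no read in NPC, is drawn at the left edge. The role medians of the CCT, mitochondrial chaperonin and 20S alpha genes lie left of the dashed line in NPC and in serum iPS cells, and right of it in the response of iPS cells to 2i; Psma7 and Cct7 lie right of it in serum iPS cells, and Psma7 left of it in the 2i response.

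Of the 20S core, the alpha ring fell as a block in NPC: all 6 measured alpha genes were lower, with a median log2 change of -0.998. Psma4 was at 280 and 218 CPM in ES cells, 111 and 101 CPM in NPC, 92.8 and 97.4 CPM in iPS cells and 169 and 173 CPM in iPS cells in 2i. NPC and serum iPS libraries both lay well below ES cells, with log2 changes of -1.25 ± 0.15 (SE; adjusted p = 1.27e-08) and -1.40 ± 0.14 (adjusted p = 8.62e-10). Psma7 behaved otherwise in iPS cells: it stood at 579 and 578 CPM in ES cells, 407 and 479 CPM in NPC and 806 and 835 CPM in iPS cells, higher than ES cells by 0.50 ± 0.13 (adjusted p = 0.00108). Its smaller change in NPC, -0.38 ± 0.13 (adjusted p = 0.0113), did not hold without NPC replicate 1.

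The constitutive beta ring moved less. Of its 7 measured genes, 3 were lower in NPC and 4 did not pass the test, with a median of -0.28. Psmb6, one of the peptidase subunits, was at 880 and 1024 CPM in ES cells, 731 and 907 CPM in NPC, 1060 and 1024 CPM in iPS cells and 1186 and 1128 CPM in iPS cells in 2i, and the ES and NPC ranges overlapped. Psmb7, another peptidase subunit, was at 209 and 195 CPM in ES cells and 103 and 116 CPM in NPC, a log2 change of -0.87 ± 0.13 (adjusted p = 1.42e-06). In iPS cells 2 of the 7 genes were higher than in ES cells (Psmb3 and Psmb4) and 1 was lower (Psmb7). The call of Psmb4 was lost without ES replicate 2 or iPS replicate 1, and that of Psmb7 without ES replicate 1, either iPS library, ES_2i replicate 2 or iPS_2i replicate 1.

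Psmb8, Psmb9 and Psmb10 encode the inducible peptidases that replace the constitutive ones in the immunoproteasome. Psmb10 was at 85.9 and 104 CPM in ES cells and 57.0 and 68.6 CPM in ES cells in 2i, and at 109 and 116 CPM in iPS cells and 66.8 and 69.2 CPM in iPS cells in 2i. The 2i libraries of both lines lay below the serum libraries, with log2 changes of -0.58 ± 0.14 in ES cells (adjusted p = 0.0022; not passed without ES_2i replicate 1) and -0.73 ± 0.14 in iPS cells (adjusted p = 0.000126). Psmb8 rested on few reads: 26 and 5 in ES cells, 2 and 4 in ES cells in 2i, 18 and 23 in iPS cells, and 0 and 3 in iPS cells in 2i. It passed the test in both 2i comparisons (adjusted p = 0.00158 in ES cells, where the call was lost without ES replicate 1, and 1.79e-05 in iPS cells), and in iPS cells its level in serum was 18.8 times that in 2i, with a 95% counting interval of 5.99 to 94.8. Psmb9 stayed between 1.57 and 4.43 CPM and passed in none of the 7 comparisons. The interferon-responsive Irf1 and Irf9, the 2 of 8 such markers with a row, summed to 1.67 to 4.92 CPM over the 10 libraries.

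In the 19S cap, the ATPases unfold the substrate. All 4 tested ATPase genes were lower in NPC, and 3 of them were lower in serum iPS cells than in ES cells. In NPC the call of Psmc6 (-0.52 ± 0.20, adjusted p = 0.0267) was lost without ES replicate 1, without either NPC library, by DESeq2 and by limma, and that of Psmc3 (-0.32 ± 0.13, adjusted p = 0.0343) without NPC replicate 1, under DESeq2 size factors and with only the groups compared. Psmc2 was at 207 and 173 CPM in ES cells, 66.1 and 90.4 CPM in NPC, 115 and 90.2 CPM in iPS cells and 133 and 170 CPM in iPS cells in 2i. Its log2 change was -1.24 ± 0.17 in NPC (adjusted p = 1.25e-07) and -0.90 ± 0.15 in iPS cells (adjusted p = 9.98e-06). Psmc3 differed little from ES cells in serum iPS cells (867 and 862 CPM against 761 and 803 CPM; 0.14 ± 0.13, adjusted p = 0.354).

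Among the 9 tested non-ATPase genes, 7 were lower in NPC and none higher. Psmd1, a scaffold subunit, was at 384 and 337 CPM in ES cells, 161 and 173 CPM in NPC, 151 and 156 CPM in iPS cells and 203 and 265 CPM in iPS cells in 2i, so that NPC and serum iPS cells were the low groups. Psmd12 followed the same order, with 228 and 179 CPM in ES cells, 92.1 and 71.3 CPM in NPC, 74.6 and 78.1 CPM in iPS cells and 127 and 140 CPM in iPS cells in 2i. Psmd11, a cap subunit known for its link to high proteasome activity in human ES cells, was at 14.7 CPM in both ES libraries, 3.35 and 3.77 CPM in NPC and 12.2 and 9.53 CPM in iPS cells; it fell by 2.005 ± 0.36 in NPC (adjusted p = 1.5e-05) and in iPS cells did not pass against ES cells (-0.44 ± 0.24, adjusted p = 0.126). Psmd14, the deubiquitinase of the cap, had a log2 change of -1.10 in NPC and -0.79 in serum iPS cells.

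Psmd3, also a cap subunit, and Psmd9 were the 2 non-ATPase genes that were higher in serum iPS than in ES cells. Psmd3 was at 145 and 153 CPM in ES cells, 155 and 171 CPM in ES cells in 2i, 143 and 181 CPM in NPC, 411 and 337 CPM in iPS cells, and 217 and 223 CPM in iPS cells in 2i. Serum iPS cells stood above all other groups without overlap, by 1.33 ± 0.14 against ES cells (adjusted p = 1.07e-09), and the level dropped by 0.77 ± 0.13 with 2i (adjusted p = 2.03e-05). Its second model was also higher in iPS cells than in ES cells by the same test. With 2i in iPS cells that second model changed by 0.21 and did not pass (adjusted p = 0.581 by the same test). Psmd9, an assembly chaperone of the ATPase ring, was at 145 and 131 CPM in iPS cells against 83.4 and 104 CPM in ES cells (0.57 ± 0.14, adjusted p = 0.00117; not passed without ES replicate 1). With 2i it was at 96.8 and 86.9 CPM in iPS cells and 64.4 and 68.6 CPM in ES cells, lower than in serum in both lines. The call in ES cells was lost without ES replicate 2 or ES_2i replicate 1.

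Among activators and assembly factors, Psmg1, which helps to build the alpha ring, was at 209 and 189 CPM in ES cells, 49.4 and 75.9 CPM in NPC, and 167 and 170 CPM in iPS cells. It fell by 1.60 ± 0.15 in NPC (adjusted p = 1.81e-10) and was higher by 1.36 ± 0.16 in iPS cells than in NPC (adjusted p = 9.55e-09). Psme4, the large single-chain activator PA200, had its lowest level in serum iPS cells: 45.1 and 36.3 CPM in ES cells, 24.3 and 26.1 CPM in NPC, 13.6 and 18.4 CPM in iPS cells, and 34.4 and 43.1 CPM in iPS cells in 2i. The 2i iPS libraries were near the ES range, and the serum iPS libraries lay below all 8 others. Psme3, the nuclear activator PA28 gamma, was at 509 and 481 CPM in ES cells, 313 and 336 CPM in NPC, and 539 and 540 CPM in iPS cells.

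The CCT chaperonin showed a broad decrease in NPC: 8 of its 9 genes were lower, with a median log2 change of -1.43, and none was higher. The call of Tcp1 (-0.75 ± 0.27, adjusted p = 0.0183) was lost without ES replicate 1, without NPC replicate 1 and by DESeq2. Cct8 was at 622 and 562 CPM in ES cells, 400 and 376 CPM in ES cells in 2i, 132 and 188 CPM in NPC, 189 and 201 CPM in iPS cells, and 212 and 317 CPM in iPS cells in 2i. Its log2 change was -1.86 ± 0.17 in NPC (adjusted p = 2.99e-11) and -1.60 ± 0.16 in serum iPS cells (adjusted p = 5.91e-10), and the iPS and NPC levels were not told apart (0.26 ± 0.16, adjusted p = 0.201). Cct2 was at 2198 and 2065 CPM in ES cells, 615 and 716 CPM in NPC and 1339 and 1418 CPM in iPS cells, so that iPS cells lay between NPC and ES cells. Cct7 returned to the ES level: 2154 and 1976 CPM in ES cells, 887 and 1065 CPM in NPC, and 2106 and 2010 CPM in iPS cells, a difference of -0.01 ± 0.13 between iPS and ES cells (adjusted p = 0.981). Cct3 lies in a chromosome 3 region around Nes that the same study measured by chromosome conformation capture; it was at 102 and 48.2 CPM in ES cells and 28.5 and 28.97 CPM in NPC, and 46.4 and 42.9 CPM in iPS cells. Its ES replicates lay far apart, and its call against iPS cells was lost without ES replicate 1.

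**Figure D3:**
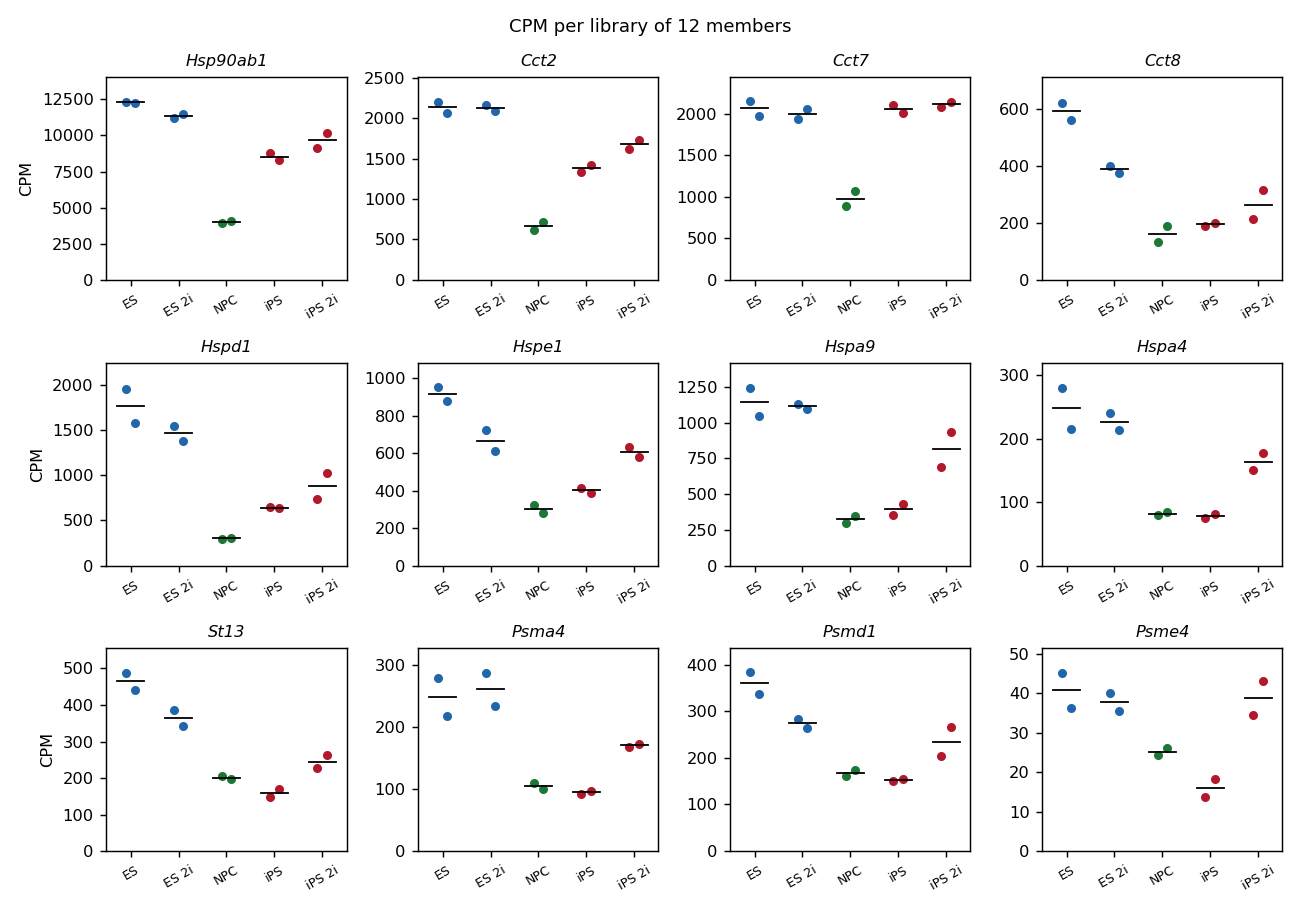
CPM (y axis, from 0) of 12 members in each of the 10 libraries by group (x axis); points are libraries and bars the means of 2. Cct7 in iPS cells is at the ES level (2010 and 2106 CPM), while Cct8, Hspa9, Hspa4 and Psma4 in serum iPS cells are near the NPC level and are higher in 2i.

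Hspd1 and Hspe1 encode HSP60 and its lid HSP10, which work as 1 machine in the mitochondrial matrix. They are neighbours on chromosome 1, with 215 bases from the end of the Hspd1 model to the start of the Hspe1 model (mm9, chr1:55134677-55144776 and chr1:55144991-55148161), and are read in opposite directions from the shared interval. Hspd1 was at 1958 and 1572 CPM in ES cells, 1548 and 1379 CPM in ES cells in 2i, 295 and 309 CPM in NPC, 643 and 634 CPM in iPS cells, and 731 and 1022 CPM in iPS cells in 2i. Hspe1 was at 952 and 877 CPM in ES cells, 722 and 611 CPM in ES cells in 2i, 322 and 279 CPM in NPC, 415 and 389 CPM in iPS cells, and 636 and 579 CPM in iPS cells in 2i. For both genes NPC was the lowest group, serum iPS cells came next, and neither range overlapped the ES range. The log2 change in NPC was -2.55 ± 0.16 for Hspd1 (adjusted p = 4.09e-15) and -1.61 ± 0.14 for Hspe1 (adjusted p = 9.68e-12), and that in iPS cells -1.47 ± 0.15 and -1.19 ± 0.13.

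The interval between Hspd1 and Hspe1 holds the classic binding motif of heat shock factors, and it is shown because the pair moved together. The sequences below are from RefSeq on GRCm38.p6, a later build than the mm9 of the counts, and run 5′ to 3′ on the strand of the gene; capitals mark the motif. Of the 95 members 77 had a promoter entry, and 15 motifs were searched on both strands in the 250 bases before each listed start. The motif of 3 heat shock units, GAANNTTCNNGAA, was in 0.514% of 27025 genes, in 3 of 45 chaperone members (Hspd1, Hspe1 and Dnajb6) and in none of 32 proteasome members. The match of Hspd1 and Hspe1 is the same stretch read from either side, and 2 overlapping matches are in it. The Hspe1 piece is 30 bases on the plus strand at chr1:55088053-55088082, and the Dnajb6 piece the 200 bases before its first listed start at chr5:29735698-29735897, plus strand.
Hspe1: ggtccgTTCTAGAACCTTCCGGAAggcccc
Dnajb6: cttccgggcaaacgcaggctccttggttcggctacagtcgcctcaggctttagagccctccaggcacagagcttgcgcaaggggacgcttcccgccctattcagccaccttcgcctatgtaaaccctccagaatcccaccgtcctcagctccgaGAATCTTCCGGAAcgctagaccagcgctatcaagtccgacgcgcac
Dnajb6, whose J protein suppresses aggregation, shares the motif. It was at 97.7 and 106 CPM in ES cells, 25.1 and 21.7 CPM in NPC, 49.7 and 44.8 CPM in iPS cells and 69.5 and 84.9 CPM in iPS cells in 2i. Its group means ran from ES cells through ES and iPS cells in 2i and serum iPS cells down to NPC, as did those of the pair. Of the 87 tested members 19 had that order, among them 13 with a promoter entry and without the motif. The order was not counted over all models, so this count does not set the members apart from other genes. A match is a description of these letters and says nothing of a factor's binding in these cells.

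HSP70 proteins bind unfolded stretches, and HSP110 and co-chaperones drive or arrange their cycle. Hspa9, the mitochondrial HSP70, was at 1244 and 1044 CPM in ES cells, 1132 and 1095 CPM in ES cells in 2i, 301 and 345 CPM in NPC, 357 and 430 CPM in iPS cells, and 689 and 937 CPM in iPS cells in 2i. Hspa4, an HSP110-type exchange factor, was at 281 and 216 CPM in ES cells, 240 and 213 CPM in ES cells in 2i, 80.4 and 83.7 CPM in NPC, 75.7 and 81.9 CPM in iPS cells, and 151 and 177 CPM in iPS cells in 2i. Both were low in NPC and serum iPS cells, with overlapping ranges for Hspa4, and intermediate in iPS cells in 2i. The log2 changes against ES cells were -1.82 ± 0.15 and -1.54 ± 0.15 for Hspa9 and -1.60 ± 0.15 and -1.66 ± 0.14 for Hspa4, in NPC and iPS cells respectively. Hspa8, the constitutive cytosolic HSP70, was measured only through a model at 40.5 and 23.4 CPM in ES cells and 9.21 and 13.9 CPM in NPC (-1.43), which is not the level of the gene. Among the 6 tested HSP70 and HSP110 genes, 4 were lower in NPC and 1 was higher (Hspa12b, at 2.51 and 5.79 CPM against 1.74 and 1.32 CPM, not passed without ES replicate 2 or without NPC replicate 2).

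Hsp90ab1, the constitutive cytosolic HSP90, took the most assigned reads of all members in each group, a count that also depends on transcript length. It was at 12333 and 12234 CPM in ES cells, 11213 and 11500 CPM in ES cells in 2i, 3944 and 4094 CPM in NPC, 8750 and 8279 CPM in iPS cells, and 9136 and 10160 CPM in iPS cells in 2i. NPC were 3.06-fold lower than ES cells (log2 change -1.61 ± 0.12, adjusted p = 5.86e-13), and iPS cells were 1.44-fold lower (-0.53 ± 0.12, adjusted p = 0.000347). St13 and Stip1, adaptors that couple HSP70 and HSP90, were lower in NPC (log2 changes of -1.21 ± 0.14 and -1.31) and in iPS cells (-1.54 ± 0.13 and -0.70). St13 was at 488 and 441 CPM in ES cells, 204 and 198 CPM in NPC, 149 and 171 CPM in iPS cells and 227 and 262 CPM in iPS cells in 2i, with the serum iPS libraries the lowest of the 10.

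Some members work in the endoplasmic reticulum (ER), where secreted proteins fold. Of those described in this paragraph, Hsp90b1, Dnajc10 and Dnajc3 did not pass the test in NPC against ES cells, and Dnajb9 and Dnajb11 were lower. They are not a complete list of the ER members. Hsp90b1, the ER form of HSP90 (GRP94), was at 142 and 99.3 CPM in ES cells, 67.0 and 65.3 CPM in ES cells in 2i, 152 and 144 CPM in NPC, 70.3 and 81.5 CPM in iPS cells, and 60.3 and 80.4 CPM in iPS cells in 2i. NPC were not told apart from ES cells (0.27 ± 0.16, adjusted p = 0.145) and stood above iPS cells, whose log2 change from NPC was -0.96 ± 0.17 (adjusted p = 1.25e-05). Dnajc10, an ER J protein with disulphide reductase activity, was at 64.8 and 54.8 CPM in ES cells, 74.5 and 73.3 CPM in NPC and 28.2 and 36.3 CPM in iPS cells, again with iPS cells below both other groups (-0.90 ± 0.17 against ES cells, adjusted p = 5.81e-05). Dnajc3, which is induced by ER stress, was at 30.4 and 26.3 CPM in ES cells, 35.2 and 35.6 CPM in NPC and 20.0 and 26.9 CPM in iPS cells; its change from NPC to iPS cells, -0.59 ± 0.21, passed the test (adjusted p = 0.0209) but not without either NPC library or without iPS replicate 1. Dnajb9, a J protein of the same compartment, was at 30.5 and 24.5 CPM in ES cells, 10.0 and 11.3 CPM in NPC and 5.98 and 9.87 CPM in iPS cells (-1.36 ± 0.28 in NPC, adjusted p = 9.39e-05). Dnajb11, an ER J protein that assists the HSP70 of this compartment, was at 23.6 and 22.1 CPM in ES cells, 8.37 and 14.8 CPM in NPC and 23.7 and 28.6 CPM in iPS cells (-0.85 ± 0.24 in NPC, adjusted p = 0.00287).

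Hsp90b1 and Dnajc3 share the endoplasmic reticulum stress element, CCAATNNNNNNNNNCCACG, in the 250 bases before their starts. It was in 0.13% of 27025 genes and in 2 of 45 chaperone members, and in no proteasome member. The promoters are shown as the 200 bases before the start on the strand of the gene, at chr10:86705445-86705644 (minus strand) for Hsp90b1 and chr14:118937732-118937931 (plus strand) for Dnajc3. Capitals mark the element. Hsp90b1 holds 2 copies: the one in capitals, at positions -107 to -89 from the start, reads in the reverse direction, and the other, at -212 to -194, reads forward. It begins before the printed stretch and is not in capitals.
Hsp90b1: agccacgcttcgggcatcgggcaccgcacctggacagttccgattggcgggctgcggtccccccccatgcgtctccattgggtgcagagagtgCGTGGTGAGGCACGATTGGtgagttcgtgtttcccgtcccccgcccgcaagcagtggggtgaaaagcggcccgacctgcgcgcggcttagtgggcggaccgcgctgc
Dnajc3: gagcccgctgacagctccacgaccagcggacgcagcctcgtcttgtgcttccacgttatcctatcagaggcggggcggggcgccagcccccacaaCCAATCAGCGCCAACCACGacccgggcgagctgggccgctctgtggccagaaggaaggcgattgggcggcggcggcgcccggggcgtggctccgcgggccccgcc
Both genes had NPC libraries at or above the ES libraries, as given above. The other motifs were more common. The CCAAT box was in 10 of 32 proteasome and 17 of 45 chaperone members (37.5% of all genes), the GC box GGGCGG in 18 and 34 (35.4%), and the NRF1 site GCGCANGCGC in 5 and 7 (4.23%). The shorter heat shock forms GAANNTTC and TTCNNGAA were in 2 and 6 members (7.73%) and in 1 and 7 members (8.11%), and the longer heat shock motif counts in both. The interferon-stimulated element GAAANNGAAA was in 2 and 1 (3.46%) and the gamma-activated sequence TTCNNNGAA in 2 and 3 (8.13%), among them Psmb8. The antioxidant forms TGANTCAGC and TGACNNNGC were in 0 and 0 (1.17%) and 5 and 10 (11.5%), the E box CACGTG in 4 and 5 (6.86%), the cyclic AMP element TGACGTCA in 0 and 1 (1.77%), and AAGATGGC (1.83%) and TCAAGGTCA (0.422%) in none. The base composition of promoters was not matched in these shares.

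J proteins hand substrates to HSP70, and this largest family went in both directions. Of 12 genes of types A and B, 4 were lower in NPC and 5 higher; of 15 tested genes of type C, 8 were lower and 3 higher. The genes that were higher in NPC in types A and B all had low levels, none above 13.4 CPM in any library. Dnajb5 was at 2.53 and 2.11 CPM in ES cells, 13.4 and 11.9 CPM in NPC and 1.44 and 1.70 CPM in iPS cells, so that NPC stood clear of all other groups (2.36 ± 0.40 against ES cells, adjusted p = 7.2e-06). Dnajc18 was at 54.2 and 45.8 CPM in ES cells, 79.5 and 84.0 CPM in NPC and 24.3 and 32.7 CPM in iPS cells, and fell by 1.52 ± 0.18 from NPC to iPS cells (adjusted p = 1.23e-08). Dnajc30 was higher than in ES cells in both NPC (36.0 and 38.8 CPM against 18.5 and 22.1 CPM) and iPS cells (36.7 and 34.2 CPM).

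In the other direction, Dnaja2, a cytosolic type A J protein, was at 458 and 401 CPM in ES cells, 126 and 127 CPM in NPC and 177 and 166 CPM in iPS cells. Dnajc8, a J protein of the splicing machinery, was at 324 and 308 CPM in ES cells, 78.7 and 76.5 CPM in NPC, 83.9 and 89.5 CPM in iPS cells, and 168 and 185 CPM in iPS cells in 2i, a drop to similar levels in NPC and serum iPS cells (-2.03 ± 0.14 and -1.87 ± 0.13). Dnajc21, which acts in ribosome assembly, was at 34.5 and 24.2 CPM in ES cells and 3.35 and 1.45 CPM in NPC, where it had 4 and 5 reads. Dnajc22 had no read in either NPC library, against 208 and 45 reads in ES cells (11.7 and 11.9 CPM) and 33 and 43 reads in iPS cells (6.80 and 7.32 CPM). Set against 3 reads per NPC library, it was at least 6.96-fold lower in NPC than in ES cells and at least 4.18-fold higher in iPS cells than in NPC. With Dnajc22 at this bound the members' medians were -0.87 and 0.33, as before.

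Small heat shock proteins hold unfolded proteins in a refoldable state. Hspb8, the partner of the co-chaperone Bag3 in chaperone-assisted autophagy, had the widest ratio of group means among members with a mean log2 CPM of at least 3: 65.8 and 60.6 CPM in ES cells, 75.7 and 81.1 CPM in ES cells in 2i, 5.02 and 3.19 CPM in NPC, 332 and 279 CPM in iPS cells, and 131 and 120 CPM in iPS cells in 2i. No ranges of the 5 groups overlapped. NPC were 17.2-fold lower than ES cells (-4.10 ± 0.26, adjusted p = 7.66e-15), and serum iPS cells were 4.80-fold higher than ES cells (2.26 ± 0.14, adjusted p = 1.75e-14) and 82.5-fold higher than NPC. With 2i the level in iPS cells fell 2.44-fold (-1.29 ± 0.13, adjusted p = 2.37e-09). The co-chaperone Bag3 was at 20.0 and 23.4 CPM in ES cells, 70.3 and 75.6 CPM in NPC, 69.5 and 55.5 CPM in iPS cells and 17.8 and 19.1 CPM in iPS cells in 2i. Hspb8 was highest in serum iPS cells and next highest in iPS cells in 2i, as was the sum of the fibroblast markers given above. Within that sum Col3a1 was at 96.5 and 120 CPM in serum iPS cells and 232 and 226 CPM in iPS cells in 2i, and Thy1 was highest in NPC (60.3 and 76.5 CPM). Stmn2 was also highest in serum iPS cells and lowest in NPC. The part of these markers in the Hspb8 result was not tested. The other 4 members taken with the small heat shock proteins, of which Hspbap1 encodes a partner of HSPB1 and is no small heat shock protein itself, stayed below 5 CPM.

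**Figure D4:**
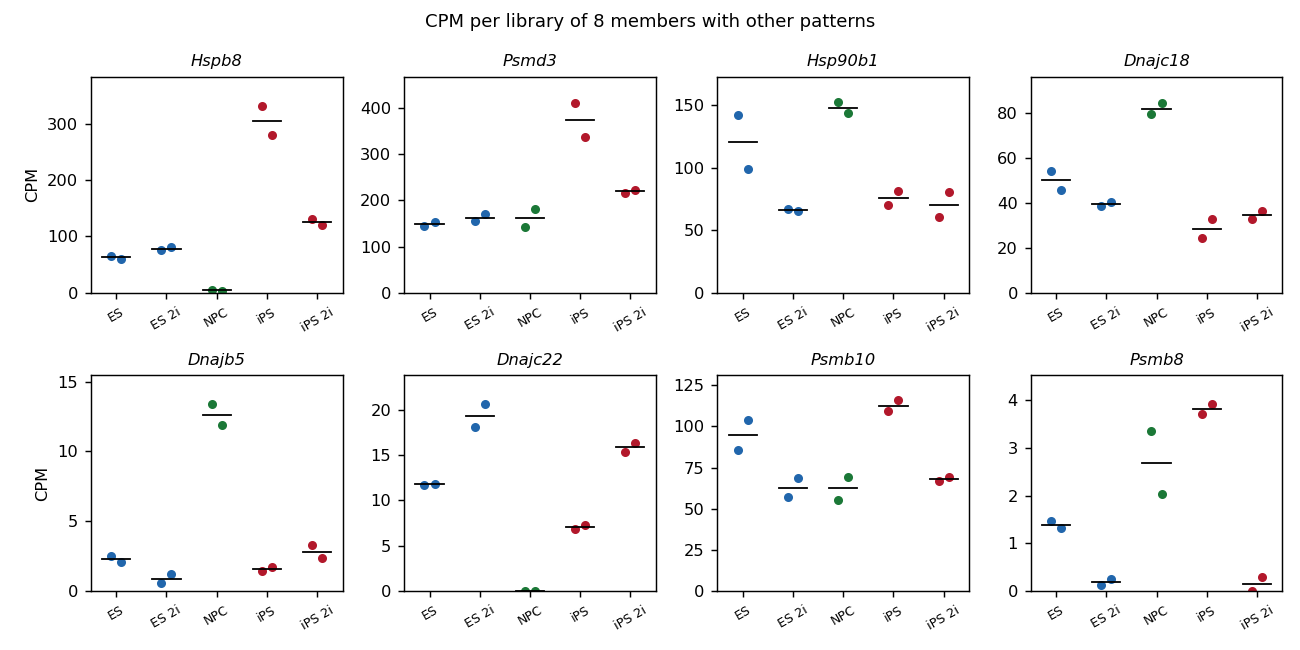
CPM (y axis, from 0) of 8 members whose order of groups differed from the general one, in each of the 10 libraries; points are libraries and bars the means of 2. Hspb8 and Psmd3 are highest in serum iPS cells, Dnajc18 and Dnajb5 in NPC, Dnajc22 is at 0 in NPC, and Psmb10 and Psmb8 are lower in 2i than in serum in both lines.

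The change from serum to 2i medium was measured in both lines, in separate libraries. In ES cells 6 members were higher in 2i (11.3% of all models) and 12 lower (13.2%), with a median of -0.11. In iPS cells 31 were higher (21.1%) and 7 lower (21.5%), with a median of 0.29 against 0.03 over all models. The test of the difference between the lines is signed, iPS minus ES. It called 31 members with a positive difference (15.1% of all models) and 3 with a negative one (12.2%), with medians of 0.39 for the members and 0.04 for all models. The count in ES cells was fragile: it was 8 without ES replicate 1, 9 and 11 without ES_2i replicate 1 or 2, and 4 higher and 4 lower by limma on the authors' table. The count of differences was 19 without ES replicate 1 and 22 without iPS_2i replicate 2, with 16 and 20 of them positive.

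Psme4 rose by 1.28 ± 0.19 with 2i in iPS cells (adjusted p = 2.3e-06) and changed by -0.14 ± 0.17 in ES cells (adjusted p = 0.608), a difference of 1.42 ± 0.25 (adjusted p = 8.39e-05). For Hspa4 the changes were 1.06 ± 0.14 and -0.14 ± 0.13, for Hspa9 1.05 ± 0.15 and -0.04 ± 0.14, for Dnajc8 1.03 ± 0.13 and -0.14 ± 0.12, and for Dnajc7, a co-chaperone that joins HSP70 and HSP90, 0.91 ± 0.16 and -0.41 ± 0.14. In each of these 5 genes both iPS libraries in 2i lay above both in serum. By role, 5 of 6 alpha ring genes, 5 of 9 CCT genes, both mitochondrial chaperonin genes and both co-chaperones St13 and Stip1 rose with 2i in iPS cells, and none of these rose in ES cells except Cct6b. In iPS cells, rises and falls in other proteasome roles were 1 and 0 of 7 constitutive beta and 0 and 2 of 4 inducible beta genes. They were 2 and 0 of 4 ATPase, 2 and 2 of 9 non-ATPase, and 1 and 1 of 4 activator and assembly genes. In other chaperone roles they were 3 and 0 of 12 (J proteins A and B), 5 and 0 of 15 (type C), 2 and 1 of 6 (HSP70 and HSP110), 0 and 0 of 2 (HSP90), and 1 and 1 of 5 (small). The rises of Hspd1, Stip1 and Cct8 did not pass without either serum iPS library or without iPS_2i replicate 2. The serum and 2i libraries of iPS cells also differed in reads in no model (75.8% and 68.4% against 65.02% and 37.4%). Without iPS_2i replicate 2, the library at 37.4%, the median log2 change was 0.31 for the members and 0.03 for all models. The part of these shares in the result was not tested.

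**Figure D5:**
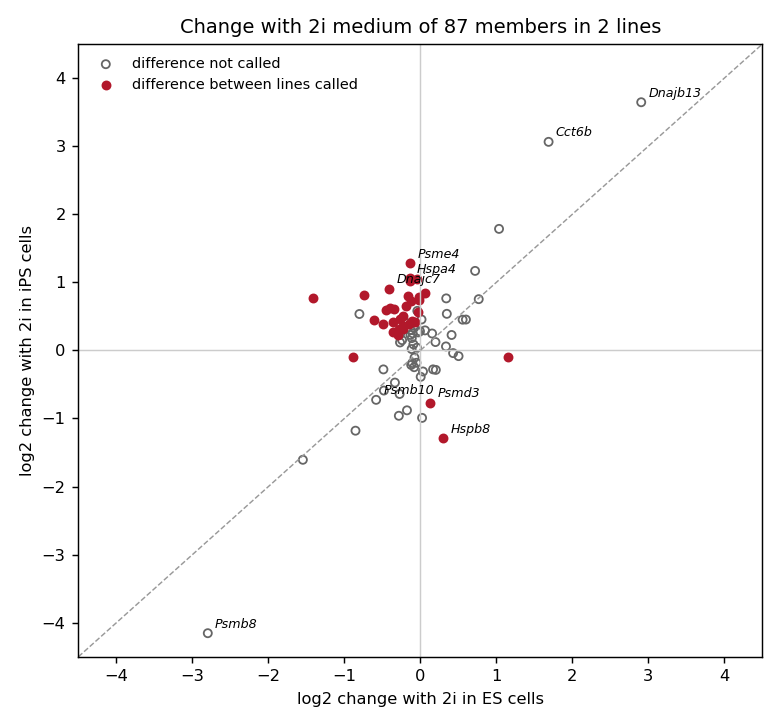
log2 change with 2i medium in ES cells (x axis) and in iPS cells (y axis) of the 87 tested members; filled points differ between the lines by the test of the difference, and the dashed line marks equal change. Most filled points lie above the line near 0 on the x axis, Hspb8, Psmd3 and Dnajb14 lie below it, and Dnajb13, Cct6b and Psmb8 changed in the same direction in both lines.

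A few members changed with 2i in the same direction in both lines. Dnajb13, a J protein of sperm flagella and cilia, was at 1.57 and 1.58 CPM in ES cells and 12.3 and 11.4 CPM in ES cells in 2i, and at 0.619 and 1.02 CPM in iPS cells and 9.84 and 11.3 CPM in iPS cells in 2i. It rose 7.49-fold in ES cells (2.91 ± 0.30, adjusted p = 7.73e-09) and 12.5-fold in iPS cells (3.64 ± 0.40, adjusted p = 7.31e-09), and the difference between the lines did not pass (0.74 ± 0.57, adjusted p = 0.366). Since Dnajb13 reached the cutoff of the low-count filter in the 2i libraries alone, its rise is not independent of that filter. Cct6b, the testis form of a CCT subunit, was at 2.19 and 0.79 CPM in ES cells and 5.83 and 5.97 CPM in ES cells in 2i, and at 0.206 and 0.511 CPM in iPS cells, where it had 1 and 3 reads, and 3.48 and 3.04 CPM in iPS cells in 2i; DESeq2 and limma did not call its change in ES cells. Hsp90b1, by contrast, fell with 2i in ES cells (-0.89 ± 0.15, adjusted p = 3.71e-05) and changed by -0.10 ± 0.16 in iPS cells (adjusted p = 0.65); the difference of 0.79 ± 0.22 (adjusted p = 0.00745) did not pass without ES replicate 1, iPS replicate 1 or iPS_2i replicate 2.

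In 2i medium the iPS and ES cells were closer, for these genes as over all models. In 2i, 8 members were higher in iPS cells (13.7% of all models) and 19 lower (11.6%), with medians of -0.13 and -0.01. Called either way were 64.4% of members and 52.9% of all models in serum, and 31% and 25.3% in 2i. The largest decreases were of Dnajb9 (11.3 and 12.6 CPM against 32.4 and 22.1 CPM, -1.18 ± 0.22, adjusted p = 0.000154) and Dnaja2 (258 and 322 CPM against 604 and 484 CPM, -0.90 ± 0.14, adjusted p = 9.39e-06). Psmd7, a cap subunit, was at 205 and 215 CPM against 367 and 353 CPM (-0.78 ± 0.12, adjusted p = 1.8e-05), and Hspd1 at 731 and 1022 CPM against 1548 and 1379 CPM (-0.74 ± 0.14, not passed without iPS_2i replicate 1). Psmb6 was higher by 0.52 ± 0.13 (adjusted p = 0.00401; not passed without ES_2i replicate 1 or without iPS_2i replicate 1). The count of 27 called members became 12 without ES_2i replicate 1 and 7 without iPS_2i replicate 1.

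Other genes of the pathway, outside the rule, were read from 5 lists. In NPC against ES cells 33.7% of all models were lower and 27.3% higher, and in serum iPS against ES cells 26.9% and 25.9%. Of the prefoldins and phosducin-like proteins, which deliver substrates to CCT, 5 of 8 tested were lower in NPC and 2 higher, and 6 were lower and 1 higher in iPS than in ES cells in serum. Of 17 tested co-chaperones and heat shock factors, 10 were lower and 4 higher in NPC; among the lower ones were Ptges3, the HSP90 co-chaperone p23 (log2 change -2.10), and Hsf2, a heat shock factor (-0.91). Of 16 tested proteasome cofactors, 9 were lower and 2 higher in NPC, among the lower ones the shuttle factor Rad23b (-1.76) and the protease Ddi2 (-1.72). These 4 genes, and Bag3 above, were chosen after their values were seen. Of 10 tested mitochondrial quality control genes, 4 were lower and 0 higher in NPC. Of 15 tested ER chaperones and unfolded protein response genes, 8 were lower and 4 higher in NPC. With 2i in iPS cells, 4 and 5 of the 16 proteasome cofactors were higher and lower, and 7 and 4 of the 17 co-chaperones, where 21.1% and 21.5% of all models were.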

How the data were processed

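RNA was measured in 10 libraries of 5 groups. Per the labels' protocols, total RNA (RIN above 9) went through a stranded, ribosomal-RNA-depleting kit from 350 ng, read with 75 cycles per end. The authors deposited raw counts for 55419 transcript models, with 92 spike-in and 5 summary entries that were kept out of library sizes and tests. The submitters' processing notes name TopHat2 2.1.0, TopHat, HTSeq and mm9. How reads were assigned by strand is not given in the sources used here. Besides counts, the authors deposited a table of normalized log2 values, made by them as log2(count + 1) plus a constant per library as far as the values show, and used here for names and positions. The planned log2(value + 1) step was dropped for limma, since these values are on the log2 scale already. The 10 chromosome conformation capture libraries were not used.

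The main test was edgeR 4.0.16's quasi-likelihood F test in R 4.3.3, on all 10 libraries with TMM scaling, a filter by expression and the group as only term (5 residual degrees of freedom). P-values were Benjamini-Hochberg adjusted over 11031 models, with 44388 left out; the threshold was 0.05 and the biological coefficient of variation 0.117. Levels are CPM; SE is that of the log2 change. In a test on simulated data for NPC against ES over 10095 models, the script recovered 58% of 2-fold and 76% of 4-fold changes. A fold against a group without reads uses 3 reads per library as a lower bound, and a ratio to 1 to 3 reads has an exact 95% interval; both cover counting error only, since amplified reads are not independent molecules. Alternatives were DESeq2 1.42.0, limma 3.58.1, DESeq2 size factors, no filter, a replicate block, only the groups compared, counts summed per symbol, each library left out in turn, and ES replicate 2 with NPC replicate 1 left out; a lone library left in a group is assumed to vary like the other groups. Figures used matplotlib 3.10.9.

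The members and lists were chosen with earlier results of these data known. Named members are, per comparison, the 6 largest changes in each direction among those past the threshold with a mean log2 CPM of at least 3, key members fixed by role, and the highest and lowest of each role. The file of iPS replicate 2 carries another replicate number in its name than its title does.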

Additional observations from a re-analysis of the deposited data

Results flagged for a closer look

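The change with 2i medium differed between iPS and ES cells by the test of the difference itself for the members below, the largest in each direction among those with a mean log2 CPM of at least 3. Beyond them, at lower levels, the difference was 2.18 for Dnajb5, 1.56 for Hsph1 and -1.26 for Dnajb14. The calls of Hsph1 and Dnajb14 were lost by DESeq2 and by limma, and also when some single libraries were left out. That of Dnajb5 was lost without ES replicate 1 or without ES_2i replicate 1. The difference (iPS minus ES, log2) was 1.42 for Psme4, 1.32 for Dnajc7, 1.20 for Hspa4, 1.16 for Dnajc8, 1.09 for Hspa9 and 1.05 for Cct8. It was -1.59 for Hspb8 (0.30 in ES and -1.29 in iPS cells) and -0.90 for Psmd3 (0.13 and -0.77). Adjusted p-values of edgeR's test were 1.59e-07 (Hspb8) to 0.000503 (Psmd3). The second models of Psme4, Hspa4 and Psmd3 did not pass it, with differences of 0.64, -0.23 and -0.31. Cct8 moved in opposite directions, falling by 0.61 in ES cells and rising by 0.44 in iPS cells, and the rise was not called without either iPS library in serum. The line, its origin and its genetic background cannot be told apart in these differences.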

How the results depend on the processing

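The 207 called changes of named members kept their direction in all 3724 values from 18 alternatives (Cct6b and Hspa12b each had no value in 1 comparison under only the groups compared), and 3389 of them stayed past the threshold; the lost calls numbered 35 of 207 without ES replicate 1, 34 without iPS replicate 1 and 33 by limma on the authors' table. With each library left out in turn, the count of called members ranged from 59 to 69 in NPC against ES, 37 to 54 in iPS against NPC, 41 to 58 in iPS against ES in serum, 8 to 18 for 2i in ES cells, 26 to 48 for 2i in iPS cells, 7 to 36 for iPS against ES in 2i, and 19 to 40 for the difference of the 2i responses. Apart from that, the count for 2i in ES cells fell from 18 to 11 by DESeq2 and to 8 by limma, and all other counts stayed within 1.5 times; the cause was not tested. Counts of iPS against ES in 2i and of both 2i comparisons involving ES cells therefore rest on single libraries.

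Same-numbered replicates did not deviate together (correlations of -0.0801 to 0.0722 between groups), so the numbers do not pair the libraries. With a replicate block the called members were 65, 46, 52, 17, 36, 27 and 34 in the order of the comparisons above. Of 91 pairs of first and second models of a gene and comparison, 61 had the same sign, and all 7 pairs with both called had the same direction. Depth limits the 20 tested members with a mean log2 CPM under 3, of which 6 were called higher and 3 lower in NPC against ES. Their median log2 change was 0.25, and that of the 67 members at or above this level was -0.99.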

Other observations

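Among genes named by none of the rules above and chosen after their values were seen, Sugt1, an HSP90 co-chaperone, had a log2 change of -2.81 in serum iPS cells against ES cells, rose by 2.06 with 2i in iPS cells and changed by -0.93 with 2i in ES cells, all past edgeR's adjusted threshold; the difference of the responses was 2.99. Bag2, a co-chaperone of HSP70, was at 30.8 and 32.7 CPM in ES cells, 97.9 and 98.2 CPM in iPS cells and 29.3 and 30.4 CPM in iPS cells in 2i. Like Hspb8 and Bag3, it was lower in 2i than in serum in iPS cells. Bag4 was at 219 and 216 CPM in ES cells, 42.7 and 49.5 CPM in NPC and 72.8 and 81.9 CPM in iPS cells. No explanation of these values was tested.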
